A study of Arabidopsis thaliana with 12 samples.

Results

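The transcript response to indole-3-acetic acid (IAA) was examined in whole Arabidopsis thaliana plants that had already been given the auxin biosynthesis inhibitor L-AOPP. It was read from 6 of the 12 arrays of the study, 3 labelled L-AOPP+IAA and 3 labelled L-AOPP, which were paired by the replicate number in their titles. All plants were Col-0, 7 days old, and had been shaken at 21 °C in liquid half-strength MS medium under continuous light. L-AOPP+IAA plants received 50 µM L-AOPP for 3 h and 1 µM IAA from 1 h onwards, so that IAA acted for 2 h. L-AOPP+IPyA plants received L-AOPP in the same way and the IAA precursor indole-3-pyruvic acid (IPyA) in place of IAA, at 100 µM by the sample descriptions and 0.1 µM by the treatment protocol. L-AOPP plants received the inhibitor alone, and mock plants received the solvent DMSO. Every plant given IAA had also been given L-AOPP, so the values describe the response to IAA in inhibited plants. Whether the 3 arrays of 1 group hold RNA of separately grown cultures is not stated in the labels, and if they do not, p-values measure technical spread alone. With 3 arrays in a group, sample number limits the precision of every value.

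IAA is the chief auxin that plants make. In the cell it joins TIR1/AFB receptors to Aux/IAA repressor proteins, the repressors are degraded, and ARF transcription factors then act on their targets. Genes known to answer soon after auxin encode the Aux/IAA repressors themselves, GH3 enzymes that conjugate IAA to amino acids, SAUR proteins that promote cell expansion, and several transcription factors of root branching and shoot growth. Auxin is also known for wall loosening in growing organs and for the initiation of lateral roots.

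Each array carried 1 sample in 1 colour, and the unit below is the deposited MAS5 signal, with the same trimmed mean of 500 on every array. Median signals lay between 173 and 185 on the L-AOPP+IAA arrays and between 171 and 178 on the L-AOPP arrays. Probe sets with a mean log2 signal over all 12 arrays at or below the 30th percentile were left out, and 15922 were tested. That percentile was a signal of 47.4, below which a group is called dim by its geometric mean. Because the mean includes L-AOPP+IAA, a probe set could pass mainly through that group. Root and shoot genes were both bright: PYK10, a root beta-glucosidase, averaged 20126 ± 1853 with L-AOPP+IAA and 19196 ± 2410.3 with L-AOPP, and RCA, Rubisco activase of leaves, averaged 17131 ± 2005 with L-AOPP+IAA and 16875 ± 349.7 with L-AOPP (SD, n = 3). In these bulk samples a change in cell types and a change of transcript per cell cannot be told apart.

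IAA changed 590 probe sets, 3.71% of those tested, at an adjusted p under 0.05 in limma with the replicate number as a block. Of these, 406 were higher (2.55%) and 184 were lower (1.16%) with L-AOPP+IAA than with L-AOPP. The rises were also larger: 28 reached 4-fold and 108 lay between 2-fold and 4-fold, whereas 2 falls reached 4-fold and 29 lay between 2-fold and 4-fold. The median size of a change on the log2 scale was 0.78 among rises and 0.55 among falls, and the median change over all tested probe sets was -0.01. The signals of the groups did not overlap for 319 of the rises and 124 of the falls, against 1619 probe sets (10.2%) over all tested. Calls and overlap rest on the same arrays, so a higher share among the calls was bound to follow. Missing overlap, here and below, is no separate support for a call. Among the called probe sets, 310 were paired with 1 gene (203 higher, 107 lower), 13 with several genes, and 267 were not listed in the annotation used here. The count depends on the pairing: without the block 63 probe sets were called, 57 higher and 6 lower, all of them among the 590. With L-AOPP+IAA replicate 1, 2 or 3 left out, 204, 215 or 245 were called higher and 86, 67 or 78 lower. With L-AOPP replicate 1, 2 or 3 left out, 410, 173 or 260 were called higher and 214, 41 or 84 lower. These sets hold new calls as well. Of the 590 calls, 269, 269 or 301 were kept without L-AOPP+IAA replicate 1, 2 or 3. Without L-AOPP replicate 1, 2 or 3, 447, 212 or 305 of the 590 were kept.

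**Figure D1:**
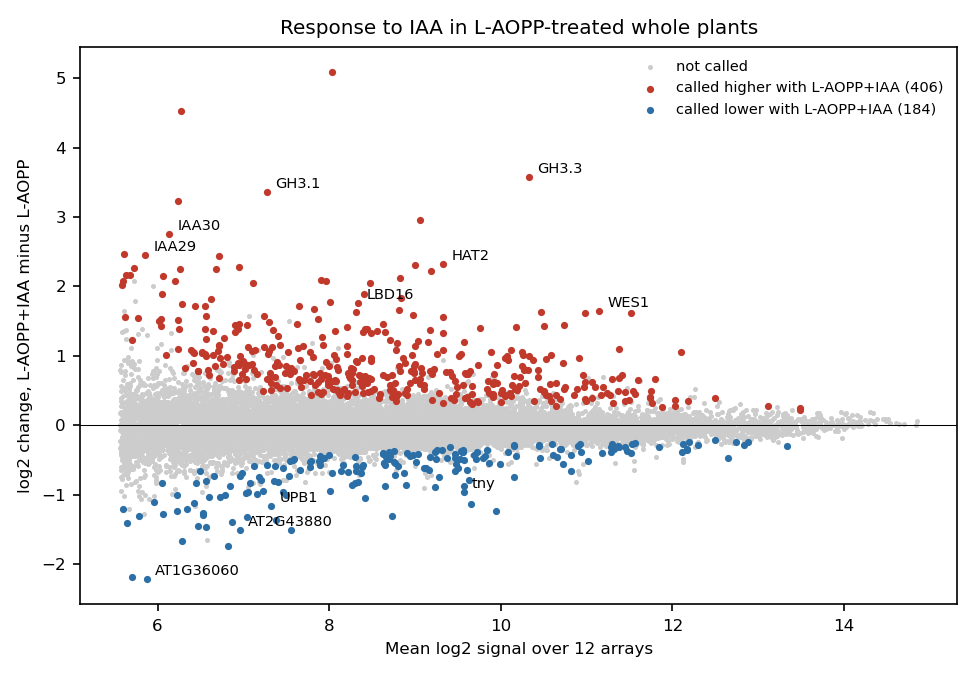
Log2 change in signal, L-AOPP+IAA minus L-AOPP, against the mean log2 signal over all 12 arrays, 1 point per tested probe set. The 406 called rises (red) reach further from 0 than the 184 called falls (blue). The labelled early auxin genes, all picked from the called rises, lie at the upper edge. Tested early auxin genes that were not called (GH3.17, GH3.9, IAA18, IAA20 and PUCHI) are not labelled.

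GH3 genes gave the 2 largest rises among probe sets paired with 1 gene. Of 11 GH3 genes in the gene reference, 5 were tested through a named probe set. Of these, 3 rose and 0 fell, with a median log2 change of 1.65 over the 5. Over all tested probe sets 2.55% were higher and 1.16% lower. GH3.3, an IAA-amido synthetase, had signals of 10387, 10186 and 8769 with L-AOPP+IAA, against 1261, 708 and 609 with L-AOPP. That is a rise of 3.58 ± 0.22 on the log2 scale (SE; 95% interval 3.11 to 4.05), or 11.9-fold (adjusted p = 2.34e-06). The lowest L-AOPP+IAA array stood far above the highest L-AOPP array. GH3.1, of the same family, had signals of 1135, 904 and 720.3 with L-AOPP+IAA, against 75.5, 145 and 63.1 with L-AOPP. It rose 10.2-fold (3.36 ± 0.38, adjusted p = 0.000349), with the widest spread of the 3 among its L-AOPP arrays relative to its level. WES1 (GH3.5), which conjugates IAA and is also linked to salicylate, had signals of 6457, 5673 and 5368 with L-AOPP+IAA, against 2665, 1862 and 1279.7 with L-AOPP. It rose 3.14-fold (1.65 ± 0.13, adjusted p = 1.73e-05), and its groups did not overlap. GH3.17 (-0.06 ± 0.09, 95% interval -0.25 to 0.13) and GH3.9 (0.01 ± 0.24, 95% interval -0.51 to 0.52) were not called. Without the block the adjusted p was 0.00364 for GH3.3, 0.0313 for GH3.1 and 0.0313 for WES1, and with the block no array left out alone ended any of these 3 calls.

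Of 32 Aux/IAA genes in the gene reference, 7 had a named probe set, and 4 passed the filter and were tested. Of these 2 rose, against 2.55% higher over all tested probe sets. The median of the 4 was 1.40, and all 4 changes were above 0. Both risen genes, IAA29 and IAA30, were dim with L-AOPP and may have passed the filter through their L-AOPP+IAA signals. The count and the median are therefore no support for a response of the family. IAA30, which like IAA20 encodes a repressor without the usual degron, had signals of 343, 278 and 346 with L-AOPP+IAA, against 61.2, 43.5 and 40.0 with L-AOPP. The rise was 2.76 ± 0.25 on the log2 scale (6.76-fold, adjusted p = 5.02e-05). IAA29 encodes another Aux/IAA repressor and had signals of 267, 234 and 207 with L-AOPP+IAA, against 41.1, 60.7 and 31.3 with L-AOPP, a rise of 2.46 ± 0.31 (5.49-fold, adjusted p = 0.000655). In both genes the groups stood well apart. With L-AOPP, IAA29 was dim and IAA30 lay just under the dim level, so the fold is less certain than the direction. IAA20 changed by 0.33 ± 0.18 (95% interval -0.06 to 0.73) and IAA18 by 0.30 ± 0.10 (95% interval 0.09 to 0.51), and neither was called. Both calls held without the block (adjusted p = 0.000552 for IAA30 and 0.0135 for IAA29).

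Of 89 listed early auxin transcription factors, 3 were tested through a named probe set. Of these 2 rose, against 2.55% higher over all tested probe sets. HAT2, a class II homeodomain-leucine zipper gene, had closely spaced arrays in both groups, with signals of 2426, 2261 and 2029 with L-AOPP+IAA, against 455, 458 and 428 with L-AOPP. It rose by 2.32 ± 0.09 (4.99-fold, adjusted p = 4e-08), and its 3 pairs gave changes of 2.41, 2.30 and 2.24. LBD16, which starts the asymmetric divisions of lateral root founder cells, had signals of 915, 849.7 and 727 with L-AOPP+IAA, against 259, 192 and 292 with L-AOPP. Its rise was 1.76 ± 0.14 (3.39-fold, adjusted p = 1.29e-05), again without overlap. PUCHI, an AP2/ERF regulator of lateral root primordia, had 50.4, 105 and 109 with L-AOPP+IAA, against 59.3, 61.7 and 34.4 with L-AOPP. It was not called (0.73 ± 0.37, 95% interval -0.06 to 1.53, adjusted p = 0.361), and replicate 1 with L-AOPP+IAA lay within the range of L-AOPP. HAT2 and LBD16 were called without the block as well (adjusted p = 3.95e-06 and 0.000984).

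**Figure D2:**
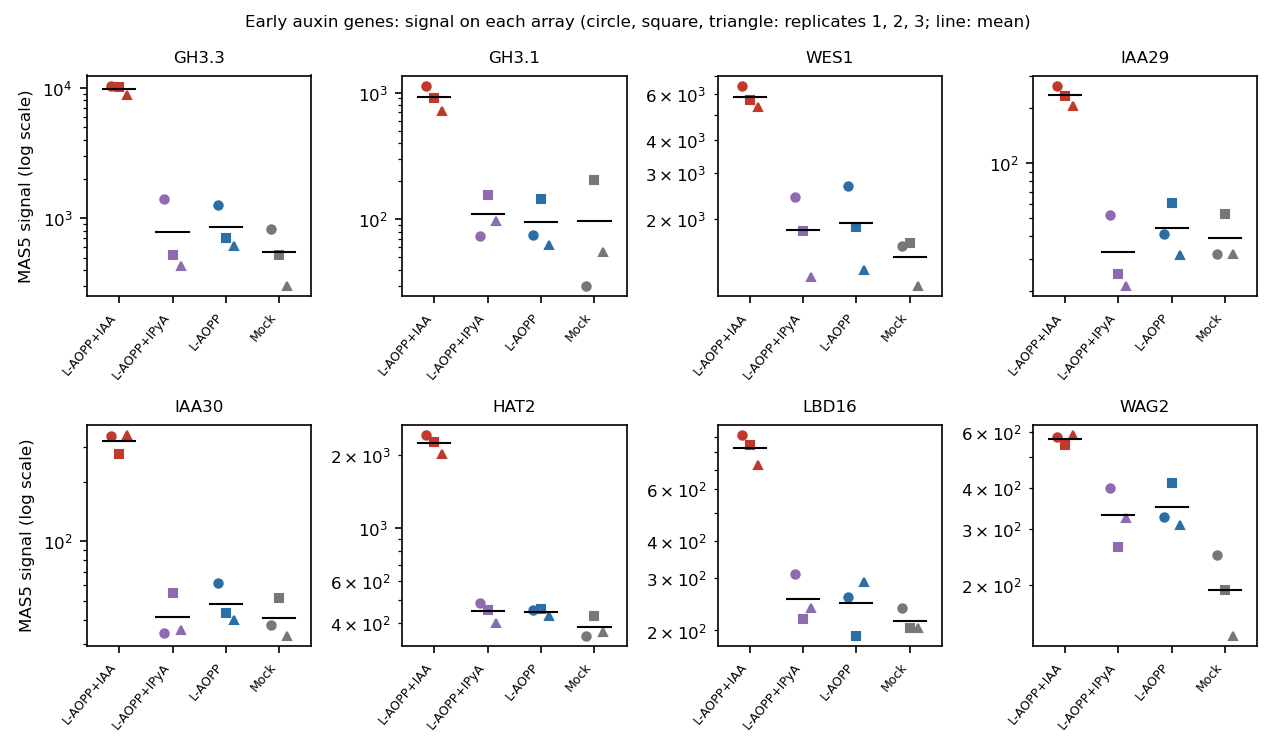
MAS5 signal (log scale, a separate range for each gene) of 8 auxin-related genes on each array, with circles, squares and triangles for replicates 1, 2 and 3 and a line at the group mean. In all 8 panels the 3 L-AOPP+IAA arrays lie above every array of the other groups. The 8 genes are the called members of their lists, so separation from L-AOPP follows largely from this choice. The uncalled members (GH3.17, GH3.9, IAA18, IAA20, PUCHI and PID2) are not shown.

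The auxin genes differed between IAA and its precursor, at doses that were not matched. GH3.3 averaged 9781 ± 882 with L-AOPP+IAA, 789 ± 544 with L-AOPP+IPyA and 550.2 ± 263 in mock. HAT2 averaged 2239 ± 199.7 with L-AOPP+IAA, 448 ± 42.9 with L-AOPP+IPyA and 384 ± 40.7 in mock. Their differences from L-AOPP+IPyA were 3.84 ± 0.22 (adjusted p = 9.94e-07) and 2.32 ± 0.09 (adjusted p = 4e-08) on the log2 scale. The same difference was 3.12 ± 0.38 for GH3.1, 1.74 ± 0.13 for WES1, 2.99 ± 0.25 for IAA30, 2.96 ± 0.31 for IAA29 and 1.71 ± 0.14 for LBD16, with adjusted p of 0.000626, 1.24e-05, 2.3e-05, 0.000203 and 1.73e-05 in that order. Across all probe sets 309 differed between L-AOPP+IAA and L-AOPP+IPyA (1.94%), 245 of them higher (1.54%) and 64 lower (0.402%) with L-AOPP+IAA. Without the block this comparison called 54 higher and 6 lower. With L-AOPP+IAA replicate 1, 2 or 3 left out, 130, 139 or 154 were called higher and 33, 35 or 34 lower. With L-AOPP+IPyA replicate 1, 2 or 3 left out, 147, 161 or 144 were called higher and 27, 32 or 36 lower. The test compares these treatments as given and says nothing of equal doses. It shares its 3 L-AOPP+IAA arrays with the comparison against L-AOPP. A difference from L-AOPP+IPyA, here and below, is therefore no separate support for a call.

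Of 31 listed genes of auxin transport and its kinases, 2 were tested through a named probe set. Of these 1 rose, against 2.55% higher over all tested probe sets. WAG2, an AGC kinase that phosphorylates PIN auxin carriers, had signals of 577, 547 and 586 with L-AOPP+IAA, against 325, 416 and 309 with L-AOPP, a rise of 0.71 ± 0.18 (1.64-fold, adjusted p = 0.0431). Its groups did not overlap, but the call ended without L-AOPP+IAA replicate 1, 2 or 3 or L-AOPP replicate 1 or 3 (adjusted p 0.0848 to 0.193). The related kinase gene PID2 changed by 0.53 ± 0.16 and was not called (adjusted p = 0.103). The only tested gene of auxin synthesis and perception was YUC2, of the step from IPyA to IAA, at -0.16 ± 0.16 (95% interval -0.50 to 0.19). Among genes of no list, chosen after their values were seen, CLE44, which encodes the TDIF peptide of vascular stem cells, rose to 262 ± 14.2, against 100.2 ± 10.0 with L-AOPP (1.39 ± 0.20, 2.62-fold, adjusted p = 0.00189). Its arrays read 253, 278 and 255 with L-AOPP+IAA and 93.3, 95.7 and 112 with L-AOPP, a wide gap, and its call held whichever array was left out and without the block (adjusted p = 0.0302). BAT1, an acyltransferase that lowers active brassinosteroids, had 281, 535 and 507 with L-AOPP+IAA, against 171, 287 and 236 with L-AOPP. Its groups overlapped, while each pair rose, by 0.71, 0.90 and 1.10 (fitted change 0.91 ± 0.12, adjusted p = 0.00108; 0.738 without the block). BRH1, a brassinosteroid-responsive RING-H2 gene, averaged 2282 ± 70.4 with L-AOPP+IAA and 1566 ± 205 with L-AOPP (0.55 ± 0.09, adjusted p = 0.00348). OPCL1, a CoA ligase of jasmonate synthesis, averaged 449 ± 114 with L-AOPP+IAA and 253 ± 52.4 with L-AOPP (0.82 ± 0.16, adjusted p = 0.0139), and its call ended without L-AOPP+IAA replicate 1 or 2 or L-AOPP replicate 2 or 3 (adjusted p 0.0732 to 0.102). Against L-AOPP+IPyA, with the same L-AOPP+IAA arrays, CLE44, BAT1 and BRH1 were higher by 1.39 ± 0.20, 1.01 ± 0.12 and 0.47 ± 0.09 (adjusted p = 0.00236, 0.000584 and 0.0135). For OPCL1 that difference missed the threshold (0.67 ± 0.16, adjusted p = 0.0583). Of 3 tested cytokinin genes 0 were called, with RR16, a response regulator, at -0.46 ± 0.17 (adjusted p = 0.188), and the tested ethylene gene, EIN3, stood at 0.08 ± 0.09 (adjusted p = 0.737).

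Cell wall genes moved in both directions. Of 21 tested expansins and xyloglucan endotransglucosylase/hydrolases (XTHs, which cut and rejoin xyloglucan), 5 rose and 2 fell, with a median of -0.06, against 2.55% higher and 1.16% lower over all tested probe sets. XTH19 had signals of 3749, 3276 and 2961 with L-AOPP+IAA, against 2047, 2254 and 1993 with L-AOPP, a rise of 0.66 ± 0.07 (1.58-fold, adjusted p = 0.000283; 0.0231 without the block). Its neighbour on the chromosome, XTH18, had 1577, 1856 and 2056 with L-AOPP+IAA, against 888, 747 and 1119 with L-AOPP (1.01 ± 0.17, 2.01-fold, adjusted p = 0.00436; 0.351 without the block). Both were separated between the groups, and both calls held whichever array was left out. The expansin-like genes EXLA1 (0.97 ± 0.16, adjusted p = 0.00488) and EXLA2 (0.80 ± 0.19, adjusted p = 0.0406) rose, as did EXPA8 (0.43 ± 0.09, adjusted p = 0.0184). Signals of EXLA1 were 594, 1004 and 474 with L-AOPP+IAA and 228, 580.2 and 284 with L-AOPP, so that the groups overlapped while every pair rose. Among the falls, EXPA15 had 366, 338 and 457 with L-AOPP+IAA, against 552, 482 and 540.2 with L-AOPP (-0.45 ± 0.10, adjusted p = 0.0272), with no overlap. EXPA9 had 1331, 526 and 786 with L-AOPP+IAA, against 1572, 1094 and 1016 with L-AOPP (-0.56 ± 0.14, adjusted p = 0.0438), with overlap, and its change was -0.36 without L-AOPP replicate 2. Calls ended without L-AOPP+IAA replicate 1, 2 or 3 or L-AOPP replicate 1 or 2 (adjusted p 0.063 to 0.228) for EXLA2, without L-AOPP+IAA replicate 1, 2 or 3 or L-AOPP replicate 1 or 3 (adjusted p 0.0573 to 0.103) for EXPA8, without L-AOPP+IAA replicate 1 or 2 or L-AOPP replicate 1, 2 or 3 (adjusted p 0.0594 to 0.145) for EXPA15 and without L-AOPP+IAA replicate 1, 2 or 3 or L-AOPP replicate 2 or 3 (adjusted p 0.0509 to 0.238) for EXPA9. None of these 5 calls (EXLA1, EXLA2, EXPA8, EXPA15 and EXPA9) was kept without the block.

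The list of other wall enzymes was matched by gene name, so genes known by locus only may lie outside it. Of its 152 genes in the reference, 20 had a named probe set. Its count therefore does not describe pectin enzymes as a class. Genes known by locus only, among them many of the largest falls, are given below and were not sorted by family. Over all tested probe sets 2.55% were higher and 1.16% lower. The list gave 1 rise and 0 falls among 11 tested members, with a median of 0.03. That rise was ATPMEPCRB (PME41, a pectin methylesterase), at 714, 873 and 852 with L-AOPP+IAA, against 429, 516 and 485 with L-AOPP (0.77 ± 0.10, 1.71-fold, adjusted p = 0.000617; 0.125 without the block). CSLC04, a glucan synthase that makes the xyloglucan backbone, averaged 1519.8 ± 243 with L-AOPP+IAA and 1017 ± 119 with L-AOPP (0.57 ± 0.10, adjusted p = 0.00606), and the call ended without L-AOPP replicate 2 (adjusted p = 0.0539). Root hair genes gave 0 calls among 4 tested members, with a median of -0.42. The root hair expansins EXPA18 (-0.69 ± 0.18, 95% interval -1.07 to -0.31, adjusted p = 0.0507) and EXPA7 (-0.42 ± 0.22, 95% interval -0.90 to 0.07, adjusted p = 0.404) and the glycosyl hydrolase GH9C1 (-0.43 ± 0.20, adjusted p = 0.308) had values below 0, and SCN1, a regulator of where root hairs start, had 0.03 ± 0.07.

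**Figure D3:**
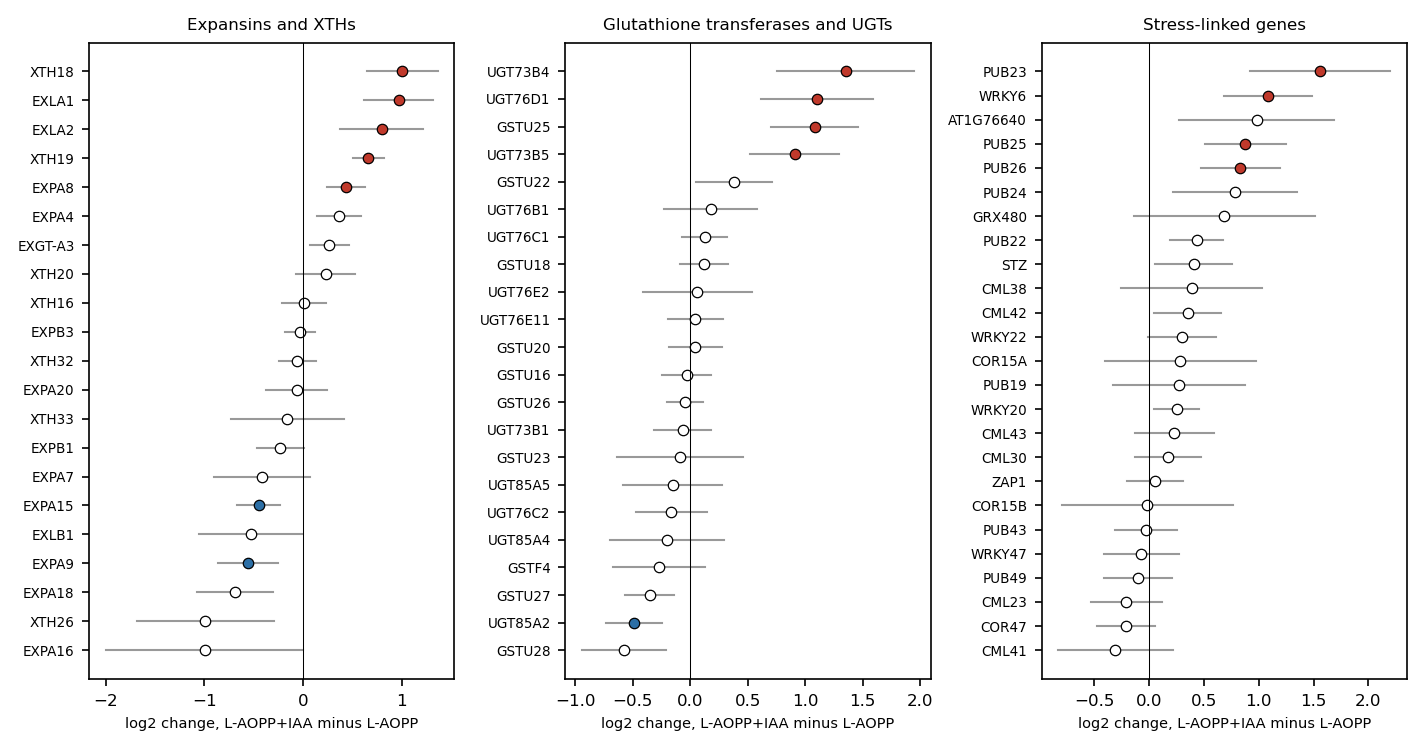
Fitted log2 change, L-AOPP+IAA minus L-AOPP, with its 95% interval for every tested member of 3 lists. Filled points are called (red higher, blue lower) and open points are not. The called members are 5 higher and 2 lower of 21 wall loosening genes, 4 higher and 1 lower of 22 detoxification genes, and 4 higher of 25 stress-linked genes.

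Detoxification genes gave 4 rises and 1 fall among 22 tested members, against 2.55% higher and 1.16% lower over all tested probe sets, with a median of 0.01. GSTU25, a tau class glutathione transferase, had 702, 1120.0 and 959 with L-AOPP+IAA, against 510.0, 441 and 354 with L-AOPP, a rise of 1.08 ± 0.18 (2.12-fold, adjusted p = 0.00385; 0.162 without the block). The UDP-glycosyltransferase genes UGT73B4 (1.35 ± 0.27, adjusted p = 0.0158) and UGT73B5 (0.91 ± 0.18, adjusted p = 0.0134) lie side by side on the chromosome and both rose. Close copies of this kind may share probes or transcripts, which was not tested. UGT73B4 read 126, 235 and 143 with L-AOPP+IAA and 64.3, 55.7 and 71.2 with L-AOPP, with L-AOPP+IAA replicate 2 the highest. UGT76D1 rose (1.10 ± 0.22, adjusted p = 0.0159), and UGT85A2 fell (-0.49 ± 0.11, adjusted p = 0.0298). Calls ended without L-AOPP+IAA replicate 1, 2 or 3 or L-AOPP replicate 2 (adjusted p 0.0536 to 0.0998) for UGT73B4, without L-AOPP+IAA replicate 2 or 3 or L-AOPP replicate 2 (adjusted p 0.073 to 0.103) for UGT73B5, without L-AOPP+IAA replicate 1 or 3 or L-AOPP replicate 2 or 3 (adjusted p 0.0731 to 0.0946) for UGT76D1 and without L-AOPP+IAA replicate 1, 2 or 3 or L-AOPP replicate 2 or 3 (adjusted p 0.0784 to 0.165) for UGT85A2. None of the 5 was called without the block. In mock, GSTU25 averaged 734 ± 287 and UGT73B4 123 ± 72.7, above the L-AOPP level of each, whereas UGT76D1 averaged 53.0 ± 12.2 in mock, below it. UGT76D1 differed from L-AOPP+IPyA (1.51 ± 0.22, adjusted p = 0.0028), and the difference of GSTU25 missed the threshold (0.54 ± 0.18, adjusted p = 0.206).

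Genes of touch, wounding, cold and general stress gave 4 rises and 0 falls among 25 tested members, against 2.55% higher and 1.16% lower over all tested probe sets. The list's median was 0.29, with 18 values above 0, and the median over all tested probe sets was -0.01. PUB23, a U-box ubiquitin ligase known to dampen immune and drought responses, had 765, 1747 and 1526 with L-AOPP+IAA, against 187, 625 and 681 with L-AOPP, a rise of 1.56 ± 0.30 (2.95-fold, adjusted p = 0.0108). Replicate 1 was the lowest in both groups, and the call ended without L-AOPP+IAA replicate 1 or L-AOPP replicate 2 (adjusted p 0.0561 to 0.0841). PUB25 (0.88 ± 0.17, adjusted p = 0.0119) and PUB26 (0.83 ± 0.17, adjusted p = 0.0139), U-box ligases of cold signalling, rose as well. WRKY6, a transcription factor of senescence and phosphate supply, had 572, 939.6 and 587 with L-AOPP+IAA, against 384, 296 and 293 with L-AOPP (1.08 ± 0.19, 2.12-fold, adjusted p = 0.00561). PUB22 (0.43 ± 0.11, adjusted p = 0.0522) and PUB24 (0.78 ± 0.26, adjusted p = 0.135), relatives of PUB23, were not called. Without the block the adjusted p of the 4 risen genes lay at 0.973 for PUB23, 0.339 for PUB25, 0.415 for PUB26 and 0.121 for WRKY6. The calls also ended without L-AOPP+IAA replicate 2 or 3 or L-AOPP replicate 2 (adjusted p 0.0643 to 0.0757) for PUB25 and without L-AOPP+IAA replicate 1 or 3 or L-AOPP replicate 2 or 3 (adjusted p 0.0675 to 0.0775) for PUB26, and WRKY6 kept its call whichever array was left out. BZIP60, a transcription factor of the unfolded protein response, averaged 1223 ± 180.1 with L-AOPP+IAA and 880.0 ± 48.2 with L-AOPP (0.47 ± 0.09, adjusted p = 0.0134), and that call ended without L-AOPP+IAA replicate 2 or 3 or L-AOPP replicate 2 or 3 (adjusted p 0.0564 to 0.103).

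Phenylpropanoid and flavonoid genes gave 1 rise and 1 fall among 12 tested members, against 2.55% higher and 1.16% lower over all tested probe sets, with a median of 0.06. HCT, an acyltransferase of lignin synthesis, averaged 3629.8 ± 382 with L-AOPP+IAA and 2922 ± 371 with L-AOPP (0.32 ± 0.07, adjusted p = 0.0297), and its call ended without L-AOPP+IAA replicate 1, 2 or 3 or L-AOPP replicate 2 or 3 (adjusted p 0.0868 to 0.15). UGT72E2, which glucosylates monolignols, fell in every pair, with signals of 906, 605 and 958 with L-AOPP+IAA, against 1333, 1382 and 1336 with L-AOPP. Its change of -0.74 ± 0.12 (1.67-fold lower, adjusted p = 0.00488) held whichever array was left out and also set it apart from L-AOPP+IPyA (-0.63 ± 0.12, adjusted p = 0.0177). AT3G13610 (F6'H1, the hydroxylase of scopoletin synthesis) averaged 1633 ± 271 with L-AOPP+IAA, 1146 ± 84.7 with L-AOPP and 1628 ± 103 in mock. It rose by 0.50 ± 0.11 (adjusted p = 0.0209), a call that ended without L-AOPP+IAA replicate 1, 2 or 3 or L-AOPP replicate 2 or 3 (adjusted p 0.0566 to 0.126). None of these 3 was called without the block.

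Another 3 genes of no list were chosen after their values were seen. MSRB9, which encodes a methionine sulfoxide reductase that repairs oxidised methionine, had 4468, 6592 and 5823 with L-AOPP+IAA, against 2198, 2943 and 2998 with L-AOPP, a rise of 1.05 ± 0.08 (2.07-fold, adjusted p = 9.35e-06). Mock averaged 5291 ± 1349.8 and L-AOPP+IPyA 4859 ± 810.3, levels near that with IAA, and the difference from L-AOPP+IPyA missed the threshold (0.21 ± 0.08, adjusted p = 0.311). MSRB5, a gene of the same enzyme family, fell, with 576, 796 and 558 with L-AOPP+IAA, against 937, 1478 and 965 with L-AOPP (-0.80 ± 0.17, adjusted p = 0.0221), and its call ended without L-AOPP+IAA replicate 2 or 3 or L-AOPP replicate 1 or 2 (adjusted p 0.0722 to 0.115). HMT-1, a homocysteine methyltransferase of methionine synthesis, had 2032, 1437 and 1331 with L-AOPP+IAA, against 1096, 809.9 and 714 with L-AOPP. Its pairs rose evenly, by 0.89, 0.83 and 0.90 (fitted change 0.87 ± 0.09, adjusted p = 0.000181), and it was also above L-AOPP+IPyA (0.92 ± 0.09, adjusted p = 0.000117). Without the block the adjusted p was 0.0681 for MSRB9, 0.684 for MSRB5 and 0.454 for HMT-1.

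Among the falls, UPB1 was the named regulator with the smallest p. UPB1 (UPBEAT1) is a bHLH factor that represses peroxidase genes where root cells stop dividing and begin to elongate. Its signals were 124, 88.8 and 95.6 with L-AOPP+IAA, against 249.9, 260.2 and 179.9 with L-AOPP, a fall of 1.16 ± 0.15 on the log2 scale (2.23-fold lower, adjusted p = 0.000925). The groups did not overlap, the call held whichever array was left out and without the block (adjusted p = 0.0439), and UPB1 was lower than with L-AOPP+IPyA (-0.94 ± 0.15, adjusted p = 0.00575). The 4 tested peroxidase genes of the list lay between -0.22 (AT2G41480) and -0.02 (AT5G64120), and none was called. Over all tested probe sets 2.55% were higher and 1.16% lower. Other peroxidase genes may lie outside this list, which was matched by gene name, so the 4 do not describe peroxidase genes as a whole. Rises and falls of genes known by locus only, given below, were not sorted by family. CYP718, a cytochrome P450 gene, had 87.5, 59.1 and 109.7 with L-AOPP+IAA, against 279, 206 and 154 with L-AOPP, a fall of 1.32 ± 0.22 (2.50-fold lower, adjusted p = 0.00424). BGLU28, a beta-glucosidase known to be induced by sulphur shortage, had 35.3, 100.3 and 59.0 with L-AOPP+IAA, against 114, 222 and 121 with L-AOPP (-1.30 ± 0.26, adjusted p = 0.0137), and its call ended without L-AOPP+IAA replicate 2 or 3 (adjusted p 0.0661 to 0.0688). tny (TINY), an AP2/ERF factor whose overexpression gives small plants, had 599, 383 and 558 with L-AOPP+IAA, against 1069.7, 836 and 1069.9 with L-AOPP (-0.97 ± 0.17, adjusted p = 0.00711), and its call ended without L-AOPP replicate 2 (adjusted p = 0.0584). PDF2.5, a defensin gene, averaged 530.5 ± 132 with L-AOPP+IAA, 964 ± 116 with L-AOPP and 476 ± 10.7 in mock (-0.89 ± 0.16, adjusted p = 0.00658), and its call ended without L-AOPP replicate 2 (adjusted p = 0.0601). FMO, annotated as a flavin monooxygenase, averaged 561 ± 124 with L-AOPP+IAA and 875 ± 109.5 with L-AOPP (-0.66 ± 0.10, adjusted p = 0.00257), and its call held whichever array was left out. Of these named falls only UPB1 was called without the block.

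Smaller falls included 5 further named genes of no list, chosen after their values were seen. LSM1B, of the cytoplasmic complex of mRNA decapping, averaged 393 ± 97.7 with L-AOPP+IAA and 588 ± 148 with L-AOPP (-0.58 ± 0.13, adjusted p = 0.0218). LSM6A, a subunit of the LSM rings, averaged 252 ± 16.8 with L-AOPP+IAA and 377 ± 37.9 with L-AOPP (-0.58 ± 0.14, adjusted p = 0.0416). PPR596, a pentatricopeptide repeat gene, averaged 584 ± 23.0 with L-AOPP+IAA and 808 ± 79.6 with L-AOPP (-0.47 ± 0.09, adjusted p = 0.0104). These 3, each well under 2-fold, were not called without the block. ALPHA-VPE, a vacuolar processing protease, fell by 0.49 ± 0.12 (adjusted p = 0.0376), and FaTA, a plastid acyl-ACP thioesterase, by 0.51 ± 0.13 (adjusted p = 0.0464). Both fell under 1.5-fold. The calls ended without L-AOPP+IAA replicate 1, 2 or 3 or L-AOPP replicate 1, 2 or 3 (adjusted p 0.085 to 0.209) for LSM6A, without L-AOPP+IAA replicate 1, 2 or 3 or L-AOPP replicate 1, 2 or 3 (adjusted p 0.0579 to 0.197) for ALPHA-VPE and without L-AOPP+IAA replicate 1, 2 or 3 or L-AOPP replicate 1, 2 or 3 (adjusted p 0.0715 to 0.256) for FaTA. The call of LSM1B ended without L-AOPP+IAA replicate 1 or 2 or L-AOPP replicate 1, 2 or 3 (adjusted p 0.0503 to 0.12) and that of PPR596 without L-AOPP+IAA replicate 1 or L-AOPP replicate 2 (adjusted p 0.0691 to 0.073).

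**Figure D4:**
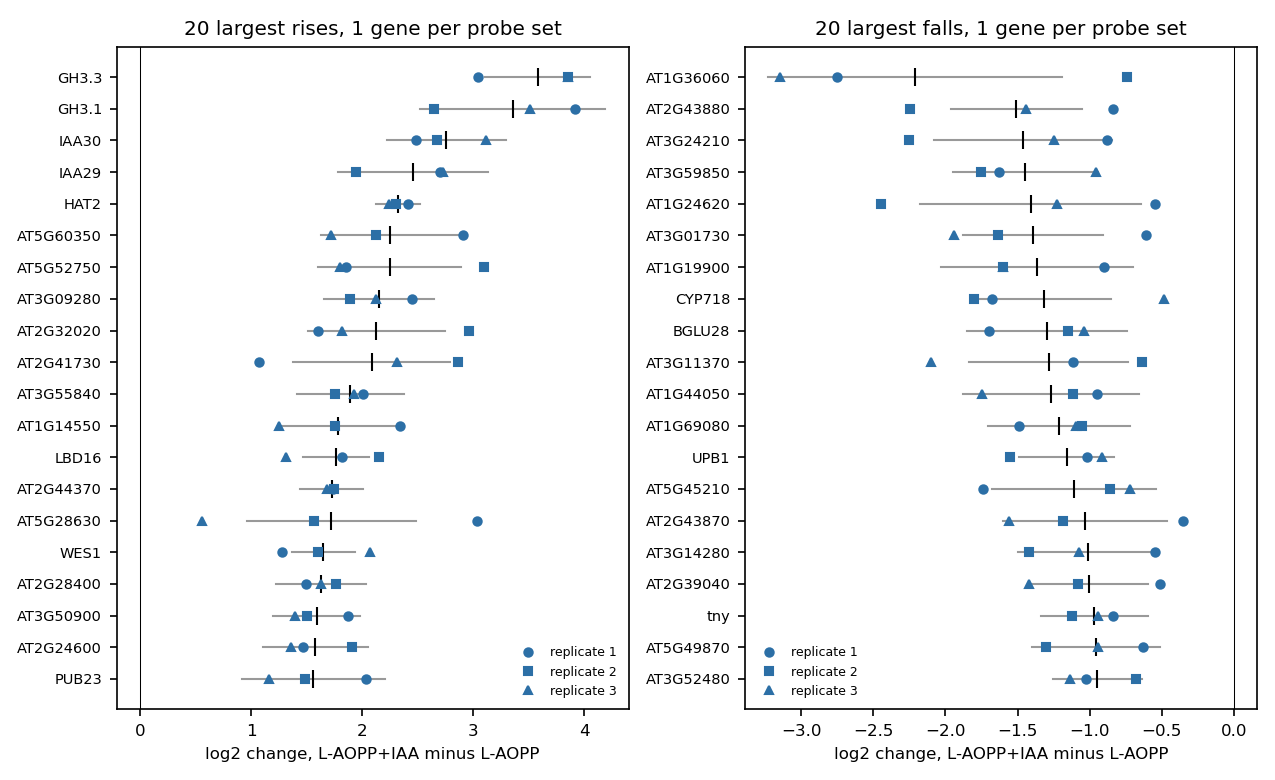
Log2 change of each replicate pair (circle, square and triangle for replicates 1, 2 and 3), with the fitted change (tick) and its 95% interval (grey line), for the 20 largest called rises and falls among probe sets paired with 1 gene. All 40 genes moved the same way in the 3 pairs, as did every one of the 406 called rises and 184 called falls. The calls come from a fit blocked on these pairs. The pairs of AT2G44370 and HAT2 lie closest together.

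Many of the largest changes belong to genes known here by locus only. AT5G60350 had 281, 227 and 201 with L-AOPP+IAA, against 37.3, 51.9 and 61.1 with L-AOPP, a rise of 2.25 ± 0.29 (4.76-fold, adjusted p = 0.000703). AT3G09280 had 222, 179 and 188 with L-AOPP+IAA, against 40.6, 48.4 and 43.2 with L-AOPP (2.15 ± 0.23, adjusted p = 0.000229), dim with L-AOPP. In both genes the arrays of a group lay close together and the call held without the block. AT2G32020 (2.13 ± 0.28, adjusted p = 0.000979), AT5G52750 (2.25 ± 0.30, adjusted p = 0.000927) and AT2G41730 (2.08 ± 0.33, adjusted p = 0.00316) differed from these in their spread. AT2G32020 read 549, 1657 and 1034 with L-AOPP+IAA and 181, 212 and 293 with L-AOPP, with L-AOPP+IAA replicate 2 far above the other two, and mock averaged 691 ± 564. AT5G52750 read 97.9, 394 and 147 with L-AOPP+IAA and 27.1, 46.0 and 42.3 with L-AOPP, again with replicate 2 on top, and mock averaged 123 ± 93.8. Neither was called without the block (adjusted p = 0.232 and 0.415), nor was AT2G41730 (0.157), whose probe set is of a type that may cross-hybridise. AT3G55840 rose evenly by pair (2.01, 1.75 and 1.92, fitted change 1.89 ± 0.22) although its groups overlapped. AT5G28630 rose by 1.72 ± 0.35 (adjusted p = 0.0164), or 1.14 without L-AOPP replicate 1, and its call ended without L-AOPP+IAA replicate 1 or 2 or L-AOPP replicate 2 (adjusted p 0.0618 to 0.104). AT2G44370 read 271, 326 and 389 with L-AOPP+IAA and 81.2, 97.0 and 121 with L-AOPP, with nearly equal changes in the 3 pairs (1.74, 1.75 and 1.68, fitted change 1.72 ± 0.13, adjusted p = 9.35e-06). AT1G14550 (1.78 ± 0.24), AT2G28400 (1.63 ± 0.19), AT3G50900 (1.59 ± 0.18) and AT2G24600 (1.58 ± 0.22) completed the 20 largest rises, which also hold PUB23 and the 7 auxin genes GH3.3, GH3.1, IAA30, IAA29, HAT2, LBD16 and WES1. Of the 20, 10 were called without the block, and 18 kept their calls without each array.

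Genes known by locus also made up most of the largest falls. AT1G36060 had 13.4, 61.4 and 11.6 with L-AOPP+IAA, against 90.1, 103 and 103 with L-AOPP, so L-AOPP+IAA replicate 2 stood apart from the other two. It fell by 2.21 ± 0.47 (4.63-fold lower, adjusted p = 0.0204), to a dim level, and its call ended without L-AOPP+IAA replicate 1 or 3 or L-AOPP replicate 2 or 3 (adjusted p 0.0712 to 0.113). AT2G43880 had 97.7, 44.9 and 62.1 with L-AOPP+IAA, against 175, 213 and 168 with L-AOPP, a fall of 1.51 ± 0.21 (2.85-fold lower, adjusted p = 0.00137), and the call held whichever array was left out and without the block (adjusted p = 0.0313). AT3G52480 had 167, 202 and 145 with L-AOPP+IAA, against 339, 322 and 320.0 with L-AOPP, a smaller fall of 0.95 ± 0.14 (adjusted p = 0.00257) with clear separation, also called without the block (0.0313). AT3G59850 (-1.45 ± 0.23, adjusted p = 0.00363) and AT3G01730 (-1.39 ± 0.22, adjusted p = 0.00364) held without each array but not without the block. AT1G24620 fell by 1.41 ± 0.35 (adjusted p = 0.0459), with a log2 change of -0.90 without L-AOPP+IAA replicate 2, and its call ended without L-AOPP+IAA replicate 2 or 3 or L-AOPP replicate 2 or 3 (adjusted p 0.0799 to 0.238). Of the 20 largest falls, 3 were called without the block, and 6 kept their calls without each array.

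Probe sets without a listed gene held the largest change of all. Probe set 262099_s_at averaged 4831 ± 199 with L-AOPP+IAA, 139 ± 100.2 with L-AOPP+IPyA, 155 ± 81.0 with L-AOPP and 64.8 ± 34.7 in mock (SD, n = 3). That is a rise of 5.08 ± 0.28 on the log2 scale over L-AOPP (33.9-fold, adjusted p = 1.3e-06). Probe set 253046_at rose by 4.52 ± 0.48 (adjusted p = 0.000229), at 326 ± 209.9 with L-AOPP+IAA and 17.6 ± 13.1 with L-AOPP, a dim level, while mock varied widely (192 ± 215). The largest falls without a listed gene were 263176_at (-2.18 ± 0.50, adjusted p = 0.0296) and 248676_at (-1.74 ± 0.26, adjusted p = 0.00257).

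Calls were also read along the chromosomes. Of 3010 pairs of adjacent genes with both members tested, 204 held at least 1 call and 8 held 2. Over all 8619 tested genes 310 were called. Whether 8 exceeds the number that pairs of unrelated genes would give was not tested. Of these 8 pairs, 4 rose together, 2 fell together and 2 went in opposite directions. XTH18 with XTH19, UGT73B5 with UGT73B4, and AT2G32020 (2.13) with AT2G32030 (1.37) were among the pairs that rose. AT2G43870 (-1.03) with AT2G43880 (-1.51) was a pair that fell, and the call of AT2G43870 ended without L-AOPP+IAA replicate 1, 2 or 3 or L-AOPP replicate 2 or 3 (adjusted p 0.0572 to 0.275). Related neighbours may share probes, which was not tested.

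Organelle transcripts showed small shifts. Of 67 tested plastid-encoded genes 6 rose and 0 fell, and 64 had a value above 0, with a median log2 change of 0.16, against 2.55% higher and a median of -0.01 over all tested probe sets. The 6 were ndhE (0.51 ± 0.13) and ndhD (0.24 ± 0.06) of the NDH complex, rbcL (0.47 ± 0.09), the large subunit of Rubisco, psbZ (0.39 ± 0.07) and psaC (0.35 ± 0.08) of the photosystems, and the protease subunit clpP (0.22 ± 0.05), with adjusted p between 0.0103 (rbcL) and 0.0447 (ndhE). rbcL read 1291, 1188 and 1158 with L-AOPP+IAA and 957, 808 and 873 with L-AOPP, without overlap, and mock averaged 1115 ± 227. psbZ averaged 5844 ± 702 with L-AOPP+IAA, 4474 ± 724 with L-AOPP and 6605 ± 317 in mock. The shift was not shared by the pairs: the median over the 67 genes was 0.00 in pair 1, 0.37 in pair 2 and 0.25 in pair 3. None of the 6 was called without the block, and each call ended when L-AOPP+IAA replicate 2 or 3 was left out alone. Of 12 tested mitochondrial genes 1 rose, cox1 of cytochrome c oxidase (0.48 ± 0.11, adjusted p = 0.0311), with a median of 0.20 over the 12, and its call ended without L-AOPP+IAA replicate 1, 2 or 3 or L-AOPP replicate 1, 2 or 3 (adjusted p 0.0501 to 0.165). Nuclear photosynthesis genes gave 0 calls among 7 and a median of 0.06, and 18 reference genes gave 0 calls and a median of -0.03. As a measure of RNA integrity, the 3' over 5' signal ratio of GAPDH averaged 1.28 ± 0.123 with L-AOPP+IAA and 1.25 ± 0.0998 with L-AOPP. For actin it averaged 11.6 ± 2.57 with L-AOPP+IAA and 11.4 ± 3.13 with L-AOPP (SD, n = 3). The part of RNA quality or of array handling in the organelle shift was not tested.

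Some lists could not be read. The SAUR, cell cycle, and gibberellin and brassinosteroid synthesis lists had 0 tested members among the named probe sets. Of 10 tested PRA1 genes of membrane trafficking 1 rose, PRA1.G2 (0.87 ± 0.17, adjusted p = 0.0139), against 2.55% higher over all tested probe sets, with a median of 0.07, and its call ended without L-AOPP+IAA replicate 1 or 3 or L-AOPP replicate 3 (adjusted p 0.0564 to 0.0766).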

How the data were processed

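Total RNA of whole plants was labelled as biotinylated cRNA, per the labels' protocols. The deposited unit is a linear intensity for each probe set, which the authors computed with MAS5 (per the submitters' processing notes). Its version and scaling are not stated in the sources at hand. Of 22810 probe sets, 64 controls were left out. The log2 of the signal (floor 0.05) entered a linear model in limma 3.58.1 (R 4.3.3; lmFit, then eBayes with an intensity trend) over 12 arrays, with group and replicate number as terms. P-values were two-sided and Benjamini-Hochberg adjusted over 15922 probe sets, and a call was an adjusted p under 0.05. The filter removed 6824 probe sets at or below the 30th percentile. The fit was also run on simulated data. These were built with the replicate block of the real arrays, so they cannot test the pairing.

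The titles number the replicates without saying what a number stands for. Pairing by this number was set with the comparison. Deviations from the group mean correlated at 0.54 to 0.61 between L-AOPP+IAA and L-AOPP arrays of the same number (3 pairs). Between other numbers (6 pairs) they correlated at -0.439 to -0.133. Deviations in a group of 3 arrays sum to 0, so values below 0 between other numbers follow from values above 0 within a number. They are no separate support for the pairing.

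The comparison, its pairing, the members and the lists were chosen with earlier results of these data known, and the organelle and phenylpropanoid lists were corrected by gene name afterwards. Genes were named by rule from probe sets paired with 1 gene: the 20 largest called rises and falls, and called list members. Those of no list outside the 20 largest (among them CLE44, BAT1, BRH1, OPCL1, CSLC04, BZIP60, MSRB9, MSRB5, HMT-1, AT3G13610, PDF2.5, FMO, LSM1B, LSM6A, PPR596, ALPHA-VPE and FaTA), and the probe sets named by ID, were chosen after their values were seen. A gene's brightest probe set was used. Promoter sequences were not used here.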

Additional observations from a re-analysis of the deposited data

How the results depend on the processing

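For L-AOPP+IAA against L-AOPP, 406 probe sets were higher and 184 lower. With no replicate block the counts were 57 and 6, with no intensity trend 258 and 95, and with a 2-fold minimum 136 and 31. With a replicate number or an array left out they lay between 108 and 418 higher and between 11 and 214 lower. For L-AOPP+IAA against L-AOPP+IPyA, 245 were higher and 64 lower. No replicate block gave 54 and 6, and a 2-fold minimum gave 100 and 16. No intensity trend gave 160 higher, and a filter at the 50th percentile gave 38 lower. Leaving out a replicate number or an array gave 101 to 267 higher and 13 to 74 lower, where the leave-outs of L-AOPP+IPyA arrays were added after seeing the data. Quantile normalization, median centring, an offset of 32, no filter and a fit of the compared groups alone moved all 4 counts by less than 1.5 times. Of 97 named calls, 15 held with no replicate block, 63 with no intensity trend, 78 with no filter, 83 in the 6 arrays alone, and 94 to 97 with the other scalings and the offset. Leaving out replicate number 1, 2 or 3 kept 77, 29 or 37 of the 97. Leaving out L-AOPP+IAA replicate 1, 2 or 3 kept 52, 52 or 56, and leaving out L-AOPP replicate 1, 2 or 3 kept 83, 46 or 59. The filter at the 50th percentile left 63 of the 97 in the test and kept 59. No named change turned its direction. Why the counts moved was not tested. Dim groups, with a geometric mean signal under 47.4, limit the size of a change: 18 rises were dim with L-AOPP, and 10 falls with L-AOPP+IAA.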
